A study of Mus musculus with 17 samples.

Results

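The interleukin 1 system of fat from around the prostate of mice was followed through 10 genes, which were chosen by name: the ligand genes Il1b, Il1a and Il18, the inhibitor genes Il1rn and Il18bp, the receptor genes Il1r1 and Il1r2, and the inflammasome genes Nlrp3, Pycard and Casp1. All 10 were among the 22180 genes measured, each with 1 probe set that carried a single gene symbol. RNA came from 17 male C57BL/6J mice of 25 weeks of age, and each mouse had an Affymetrix Mouse Gene 2.0 ST array of its own. Diets began at 6 weeks of age. The low-fat group (LFD, n = 6) had free access to food with 10 kcal% fat. Food with 60 kcal% fat was freely available to the high-fat group (HFD, n = 6). The restricted group (HFD_CR, n = 5) had that food freely for 12 weeks, after which its portion was set to 70% of what HFD mice took over 7 weeks. No group ate the low-fat food in restricted amount. The mice were separate animals, the labels name no altered allele in any group, and precision is set by how many arrays each group had.

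Interleukin 1 beta and interleukin 1 alpha are inflammatory cytokines that act through the receptor encoded by Il1r1. The antagonist encoded by Il1rn occupies that receptor without signalling, and the receptor encoded by Il1r2 is a decoy that binds the ligand and does not signal. Interleukin 1 beta and interleukin 18 are made as precursors, which caspase 1 (Casp1) cuts after it is recruited to an inflammasome through a sensor such as NLRP3 and the adaptor ASC (Pycard). In obese fat, macrophages that gather around dying adipocytes are a known site of this pathway.

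Promoter windows are shown for the members with the largest differences (Il1rn, Casp1, Pycard), for the best known ligand (Il1b) and for the member that changed in the opposite direction (Il18), since these are the genes whose transcripts the comparisons turn on. Each window runs from 250 bases before to 50 bases after a transcription start in RefSeq (GRCm38.p6), 5′ to 3′ on the strand of the gene, and capitals mark the letters of a motif found on either strand. For Il1rn the first of 3 annotated starts is given. The windows of its other starts overlap each other and held no motif.
Il1rn, chr2:24336610-24336909, plus strand: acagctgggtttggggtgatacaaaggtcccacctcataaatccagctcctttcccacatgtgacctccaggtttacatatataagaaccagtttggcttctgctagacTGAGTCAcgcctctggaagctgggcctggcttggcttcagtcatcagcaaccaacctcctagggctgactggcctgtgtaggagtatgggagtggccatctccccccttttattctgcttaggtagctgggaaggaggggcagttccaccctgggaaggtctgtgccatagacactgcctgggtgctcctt
Casp1, chr9:5298267-5298566, plus strand: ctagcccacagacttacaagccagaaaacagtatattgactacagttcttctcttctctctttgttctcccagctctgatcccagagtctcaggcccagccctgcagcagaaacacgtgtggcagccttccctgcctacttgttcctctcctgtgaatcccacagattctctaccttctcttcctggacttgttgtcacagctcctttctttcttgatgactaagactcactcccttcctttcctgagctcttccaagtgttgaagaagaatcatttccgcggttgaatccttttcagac
Pycard, chr7:127993818-127994117, minus strand: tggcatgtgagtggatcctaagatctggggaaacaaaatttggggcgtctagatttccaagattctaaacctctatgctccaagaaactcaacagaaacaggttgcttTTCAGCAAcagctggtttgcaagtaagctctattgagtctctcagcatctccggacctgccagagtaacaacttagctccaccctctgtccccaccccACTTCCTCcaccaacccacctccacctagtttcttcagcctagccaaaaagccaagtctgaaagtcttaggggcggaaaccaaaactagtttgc
Il1b, chr2:129371090-129371389, minus strand: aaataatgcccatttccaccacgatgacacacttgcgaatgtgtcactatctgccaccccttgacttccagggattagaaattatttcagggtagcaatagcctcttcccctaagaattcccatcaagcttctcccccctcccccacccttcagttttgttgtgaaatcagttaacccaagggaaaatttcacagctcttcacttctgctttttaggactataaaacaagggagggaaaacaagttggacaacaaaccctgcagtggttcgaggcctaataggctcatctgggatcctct
Il18, chr9:50554450-50554749, plus strand: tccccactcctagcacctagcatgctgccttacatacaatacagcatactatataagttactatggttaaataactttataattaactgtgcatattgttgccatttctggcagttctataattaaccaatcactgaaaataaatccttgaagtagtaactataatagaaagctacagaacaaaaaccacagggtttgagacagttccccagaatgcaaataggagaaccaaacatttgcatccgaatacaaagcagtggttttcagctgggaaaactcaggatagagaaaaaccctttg
In these lines the capitals are an AP-1 motif in Il1rn, and in Pycard a C/EBP motif followed by a PU.1 motif. PU.1 is a transcription factor of the myeloid lineage. The windows of Casp1, Il1b and Il18 held none of the 6 motifs searched.

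The 10 genes had 14 such windows. The AP-1 motif (TGANTCA) was in 2 of them, in Il1rn and Il1a, against 7.81% of all 32851 windows of the table. The C/EBP motif (TTGCNNAA) was in 3, in Il1r1, Il18bp and Pycard, against 10.8%, and the STAT motif (TTCNNNGAA) was in 1, in Il1r2, against 8.30%. The PU.1 motif (GAGGAAGT) was in 1, in Pycard, against 3.20%. No window of the 10 genes held the NF-kB motif, found in 1.47% of all windows, or the IRF motif, found in 3.44%. Both strands were searched, no motifs overlapped in the windows printed, and the matches describe letters and not bound sites. Some members lie side by side: by RefSeq order Il1a and Il1b are neighbours on chromosome 2, Il1r2 and Il1r1 are neighbours on chromosome 1, and Casp1 lies next to Casp4 on chromosome 9.

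The deposited values are log2 array signals, and array medians lay between 7.03 and 7.15. The 8 adipocyte markers were above the array median in every mouse, with list means from 12.4 to 12.8. Among the arrays, 4 were high for genes of neighbouring tissues, skeletal muscle in LFD mice 2 and 3 and HFD_CR mouse 2 and gland epithelium in LFD mouse 3 and HFD mouse 3, and LFD mice 3 and 6 were high for thermogenic adipocyte genes. Muscle genes were raised less in HFD mouse 6 (list mean 8.28) and LFD mouse 5 (7.95) than in those 3 mice (9.54 to 10.6), against 7.06 to 7.22 in the rest. HFD_CR mouse 1 was high for male germ cell genes. Results that rest on these mice are given with and without them. Of all genes that differed between HFD and LFD, 59.4% were higher in HFD as deposited and 47.9% after quantile normalization was applied again. For HFD_CR against HFD these shares were 40.5% and 51.4%. The words rose and fell are used for an adjusted p under 0.05 (limma, Benjamini-Hochberg over 22180 genes), and differences are log2 differences ± SE from that fit.

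The antagonist gene and the inflammasome protease gene showed the largest rises on the high-fat diet. Il1rn was 3.24-fold and Casp1 2.11-fold higher in HFD than in LFD. Of the 10 genes, 7 rose (Il1b, Il1rn, Il1r1, Il1r2, Nlrp3, Pycard and Casp1), Il18 fell, and Il1a and Il18bp did not pass. Over all genes tested, 16.5% rose and 11.3% fell, 27.8% in either direction. The median difference of the 10 genes was 0.39, against -0.0032 over all genes. HFD and LFD mice did not overlap for 5 of the 10 genes, against 14.3% of all genes. Macrophage markers were higher in HFD as well (list means from 10.7 to 11.2, against 9.74 to 10.2 in LFD). Their part in these results was not tested, and in bulk tissue fewer cells of a type and less RNA per cell cannot be told apart.

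Restricted intake was followed by lower signals of most of the same genes. Il1rn was 2.94-fold and Casp1 1.52-fold lower in HFD_CR than in HFD. Of the 10 genes, 6 fell (Il1b, Il1rn, Il1r2, Nlrp3, Pycard and Casp1) and 0 rose, against 11.3% and 7.69% of all genes, 19.0% in either direction. HFD_CR and HFD mice did not overlap for 4 of the 10, against 13.7% of all genes. In HFD_CR against LFD only Casp1 passed, and it was higher, against 5.80% of all genes higher and 3.28% lower, 9.08% in either direction. No member separated HFD_CR from LFD mice without overlap, against 6.67% of all genes. The comparisons share mice, so their values are given side by side and not as independent results.

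**Figure D1:**
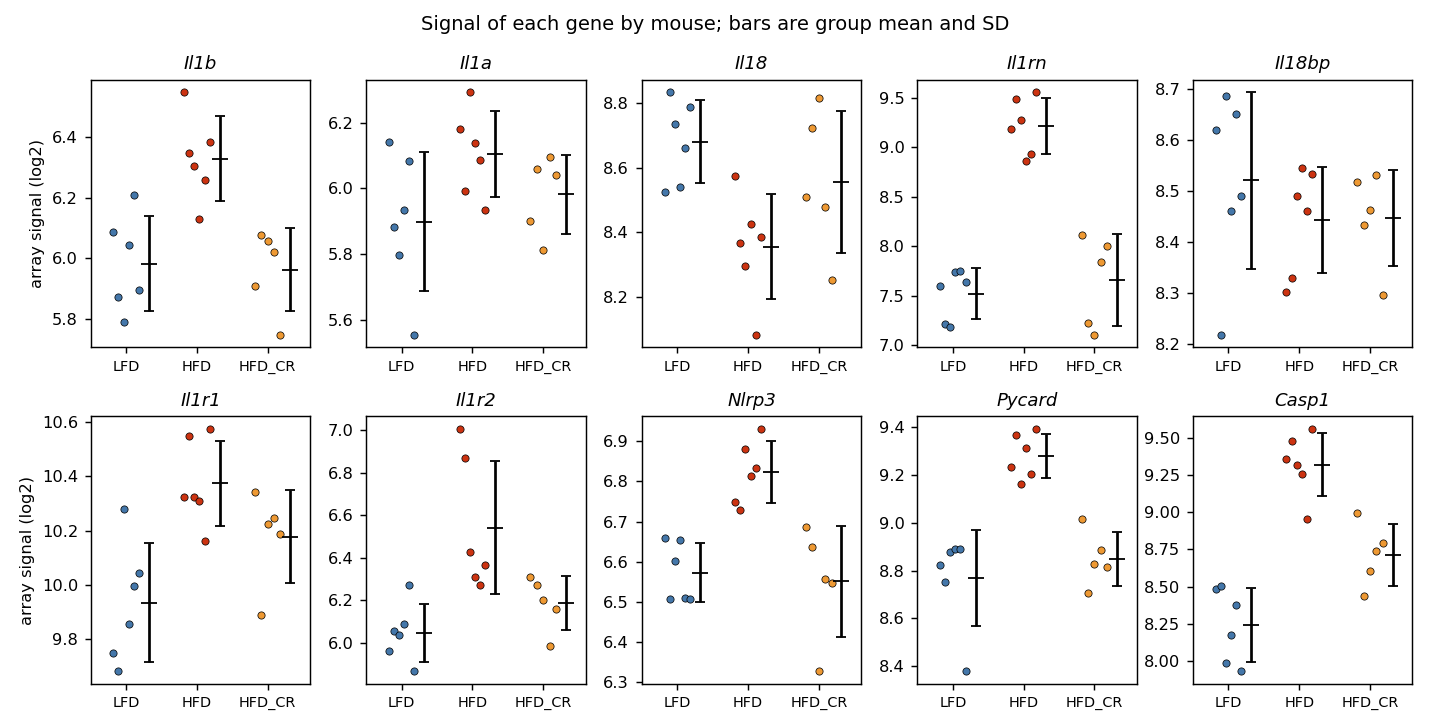
Array signal (log2) of the 10 genes in each mouse, with 1 point per mouse in LFD (blue, n = 6), HFD (red, n = 6) and HFD_CR (orange, n = 5) and bars for the group mean and SD; each panel has its own axis. Il1rn runs from 7.18 to 7.75 in LFD and from 8.86 to 9.56 in HFD, whereas for Il18 5 of the 6 HFD mice lie below every LFD mouse.

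**Figure D2:**
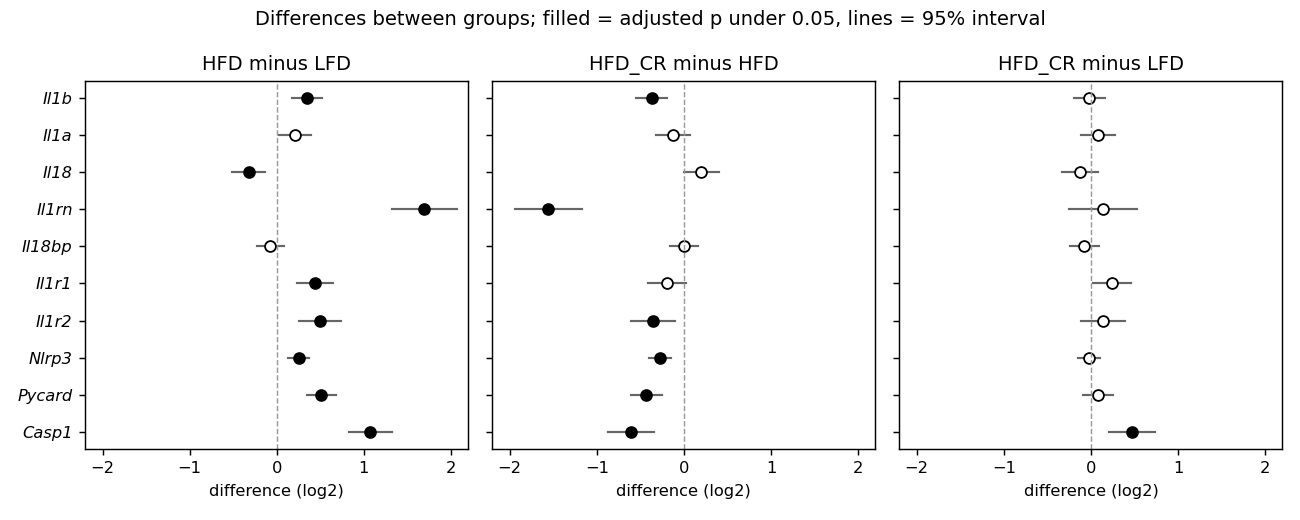
Differences between group means (log2) for the 10 genes in the 3 comparisons, with 95% intervals from the limma fit and filled points where the adjusted p was under 0.05. Il1rn stands at 1.69 in HFD minus LFD and at -1.56 in HFD_CR minus HFD, and Casp1 is the filled point in HFD_CR minus LFD.

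Il1b, the gene of the secreted interleukin 1 beta, was dim. Its signal had a lowest value of 5.79, a median of 5.97 and a highest value of 6.21 in LFD, and 6.13, 6.33 and 6.55 in HFD. The HFD_CR mice 1 to 5 measured 5.91, 6.08, 6.06, 6.02 and 5.75. The HFD group was shifted up and 5 of its 6 mice lay above every LFD mouse, while all HFD_CR mice lay below every HFD mouse. Il1b rose by 0.35 ± 0.08 in HFD (adjusted p = 0.00283) and was lower in HFD_CR than in HFD (-0.37 ± 0.08, adjusted p = 0.0043, limma). HFD_CR and LFD differed by -0.02 ± 0.08 (adjusted p = 0.926). On all 17 arrays Il1b lay below the array median, and the files hold no detection calls, which leaves the size of these differences uncertain.

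Il1a, the gene of interleukin 1 alpha, a ligand that is active without caspase cleavage, was also below the array median on all 17 arrays and passed in no comparison. It ran from 5.56 to 6.14 in LFD, with a median of 5.91, and from 5.93 to 6.29 in HFD, with a median of 6.11. The HFD_CR mice measured 5.90, 6.06, 5.81, 6.09 and 6.04, and all groups overlapped. The difference between HFD and LFD was 0.21 ± 0.09 (adjusted p = 0.0962, limma) and passed without LFD mouse 1 (0.25, adjusted p = 0.0375). HFD_CR minus HFD was -0.12 ± 0.09 (adjusted p = 0.431).

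Il18, the gene of interleukin 18, a ligand that many tissue cells make without prior stimulation, was the member that fell in HFD. In LFD the lowest value of Il18 was 8.53, the median 8.70 and the highest 8.83, and in HFD they were 8.08, 8.38 and 8.58. HFD_CR mice measured 8.51, 8.72, 8.82, 8.48 and 8.25 and spread across both other groups. Only HFD mouse 1 reached into the LFD range. Il18 fell by 0.33 ± 0.09 in HFD (adjusted p = 0.0126, limma), and HFD_CR differed from HFD by 0.20 ± 0.10 (adjusted p = 0.177). The call between HFD and LFD ended without the 4 arrays high in muscle or gland genes (-0.26, adjusted p = 0.105). Leaving out LFD mice 3 and 6 ended it too (-0.28, adjusted p = 0.0628).

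Il1rn, the gene of the receptor antagonist, had the largest difference of the 10 genes and ranked 78th by size among all genes in HFD against LFD. Its signal had a lowest value of 7.18, a median of 7.62 and a highest value of 7.75 in LFD, and 8.86, 9.23 and 9.56 in HFD. The HFD_CR mice 1 to 5 measured 8.11, 7.22, 7.11, 7.84 and 8.01. Every HFD mouse lay above every LFD mouse, with a gap of 1.10, and above every HFD_CR mouse, with a gap of 0.75. Within HFD_CR, mice 2 and 3 lay near the lowest LFD mice and mice 1, 4 and 5 lay above the highest. Il1rn rose by 1.69 ± 0.18 in HFD (adjusted p = 8.61e-07), fell by 1.56 ± 0.18 from HFD to HFD_CR (adjusted p = 1.75e-05), and differed by 0.14 ± 0.18 between HFD_CR and LFD (adjusted p = 0.731, limma). These calls held in all 30 alternatives run for each comparison.

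Il18bp, the gene of the binding protein that keeps interleukin 18 from its receptor, showed no difference that passed. Its HFD mice ran from 8.30 to 8.54 and its LFD mice from 8.22 to 8.69, and HFD_CR mice measured 8.52, 8.43, 8.46, 8.53 and 8.30. The groups lay within each other. HFD minus LFD was -0.08 ± 0.07 (adjusted p = 0.493, limma), with a 95% interval from -0.23 to 0.08, and HFD_CR minus HFD was 0.0042 ± 0.08, with an interval from -0.16 to 0.17.

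Il1r1, the gene of the signalling receptor, was higher in HFD, with an intermediate mean in HFD_CR. In LFD the lowest value of Il1r1 was 9.68, the median 9.93 and the highest 10.28, and in HFD they were 10.16, 10.32 and 10.57. HFD_CR mice measured 10.34, 9.89, 10.22, 10.25 and 10.19. Mouse 2 lay within the LFD range only, mouse 1 within the HFD range only, and mice 3, 4 and 5 within both. LFD mouse 3 reached into the HFD range, and the other LFD mice lay below it. Il1r1 rose by 0.44 ± 0.10 in HFD (adjusted p = 0.00254, limma). The HFD_CR mice did not differ from either group by the test (-0.19 ± 0.10 from HFD, adjusted p = 0.232, and 0.24 ± 0.10 from LFD, adjusted p = 0.175). The difference from LFD passed without the 4 arrays high in muscle or gland genes (0.34, adjusted p = 0.0358). It also passed when LFD mice 3 and 6 were left out (0.36, adjusted p = 0.038). The difference from HFD passed with array weights (-0.25, adjusted p = 0.034).

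Il1r2, the gene of the decoy receptor, was dim, below the array median on all 17 arrays. Its signal had a lowest value of 5.87, a median of 6.05 and a highest value of 6.27 in LFD, and 6.27, 6.40 and 7.01 in HFD. HFD mice 1 and 2 stood above the rest of their group at 7.01 and 6.87, and the lowest HFD mouse exceeded the highest LFD mouse by only 0.0002. HFD_CR mice measured 6.31, 6.27, 6.20, 5.98 and 6.16. Il1r2 rose by 0.49 ± 0.11 in HFD (adjusted p = 0.00296) and fell by 0.36 ± 0.12 from HFD to HFD_CR (adjusted p = 0.0459, limma). The call between HFD_CR and HFD ended without LFD mouse 1, 2 or 4, HFD mouse 1, 2 or 3, or HFD_CR mouse 2, 3, 4 or 5 (differences from -0.38 to -0.26, adjusted p from 0.0521 to 0.122), and without the 4 arrays high in other tissue (-0.40, adjusted p = 0.0795).

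Nlrp3, the gene of the inflammasome sensor that responds to ion efflux and crystals, moved by small amounts with a small spread. In LFD the lowest value of Nlrp3 was 6.51, the median 6.56 and the highest 6.66, and in HFD they were 6.73, 6.82 and 6.93. HFD_CR mice measured 6.69, 6.64, 6.33, 6.56 and 6.55. All HFD mice lay above all LFD and all HFD_CR mice. Nlrp3 rose by 0.25 ± 0.06 in HFD (adjusted p = 0.00292), fell by 0.27 ± 0.06 from HFD to HFD_CR (adjusted p = 0.00357), and differed by -0.02 ± 0.06 between HFD_CR and LFD (adjusted p = 0.883, limma). It too lay below the array median on all 17 arrays, so its measured size is uncertain.

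Pycard, the gene of the adaptor ASC, which joins sensor and caspase, was separated between the groups. In LFD the lowest value of Pycard was 8.38, the median 8.85 and the highest 8.89, and in HFD they were 9.16, 9.27 and 9.40. HFD_CR mice measured 9.02, 8.71, 8.83, 8.88 and 8.81. The HFD mice lay above all others, and LFD mouse 6 stood below its group. Pycard rose by 0.51 ± 0.08 in HFD (adjusted p = 8.34e-05) and fell by 0.43 ± 0.08 from HFD to HFD_CR (adjusted p = 0.00125, limma). HFD_CR and LFD differed by 0.08 ± 0.08 (adjusted p = 0.637).

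Casp1, the gene of the protease that matures interleukin 1 beta and interleukin 18, was the member whose restricted mice stayed above the LFD mice by the test. Its signal had a lowest value of 7.93, a median of 8.28 and a highest value of 8.50 in LFD, and 8.95, 9.34 and 9.56 in HFD. The HFD_CR mice 1 to 5 measured 8.99, 8.44, 8.61, 8.74 and 8.79. All HFD mice lay above all LFD mice, HFD_CR mouse 1 overlapped the lowest HFD mouse, and 4 of 5 HFD_CR mice lay above every LFD mouse. Casp1 rose by 1.08 ± 0.12 in HFD (adjusted p = 1.88e-06) and fell by 0.61 ± 0.12 from HFD to HFD_CR (adjusted p = 0.00196). It remained 0.47 ± 0.12 above LFD in HFD_CR (adjusted p = 0.0231, limma). That last call ended without LFD mouse 3 (0.42, adjusted p = 0.0513), LFD mouse 6 (0.41, adjusted p = 0.0535), HFD_CR mouse 1 (0.40, adjusted p = 0.0741), HFD_CR mouse 4 (0.46, adjusted p = 0.0527) or HFD_CR mouse 5 (0.45, adjusted p = 0.0554). It ended likewise when LFD mice 3 and 6 were both left out (0.33, adjusted p = 0.127).

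The share of the difference between HFD and LFD that was left between HFD_CR and LFD varied among the genes that had changed. For Il1r1 it was 55.6% (46.2 to 72.0% when each array was left out in turn), for Casp1 43.6% (37.1 to 50.03%) and for Il1r2 28.0% (21.7 to 38.2%). Leaving out 1 array moved the other shares by over 1.5 times. Il18 stood at 38.3%, with 15.0% without HFD_CR mouse 5 and 58.2% without HFD_CR mouse 3. Pycard stood at 15.9%, with 0.616% without LFD mouse 6 and 22.9% without HFD_CR mouse 2. Il1rn stood at 8.11%, with 1.41% without HFD_CR mouse 1 and 16.3% without HFD_CR mouse 3. The HFD_CR mean lay slightly below the LFD mean for Il1b (-5.79%, from -18.9% without LFD mouse 3 to 9.69% without HFD_CR mouse 5) and for Nlrp3 (-8.94%, from -22.6% without HFD_CR mouse 1 to 13.5% without HFD_CR mouse 3). These shares are ratios of measured means, and their differences between genes were not tested.

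The inhibitor and decoy genes were also set against their partners within each array, for 3 pairs picked after their values were seen, so the differences are a description without a test. Such a difference does not depend on how bright an array is. Il1rn minus Il1b ran from 1.35 to 1.74 in LFD, from 2.63 to 3.17 in HFD and from 1.05 to 2.26 in HFD_CR. The HFD mice lay above all others. Its mean ± SD was 1.54 ± 0.16 over 6 LFD mice, 2.88 ± 0.24 over 6 HFD mice and 1.70 ± 0.57 over 5 HFD_CR mice. Because Il1b was dim, its own change may be understated by the array, and how much of this comes from that was not tested.

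The groups overlapped for the other pairs. The mean of Il1r2 minus Il1r1 was -3.89 ± 0.26 (SD) in LFD, -3.83 ± 0.31 in HFD and -3.99 ± 0.23 in HFD_CR. For Il18bp minus Il18 it was -0.16 ± 0.26 in LFD, 0.09 ± 0.22 in HFD and -0.11 ± 0.20 in HFD_CR.

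**Figure D3:**
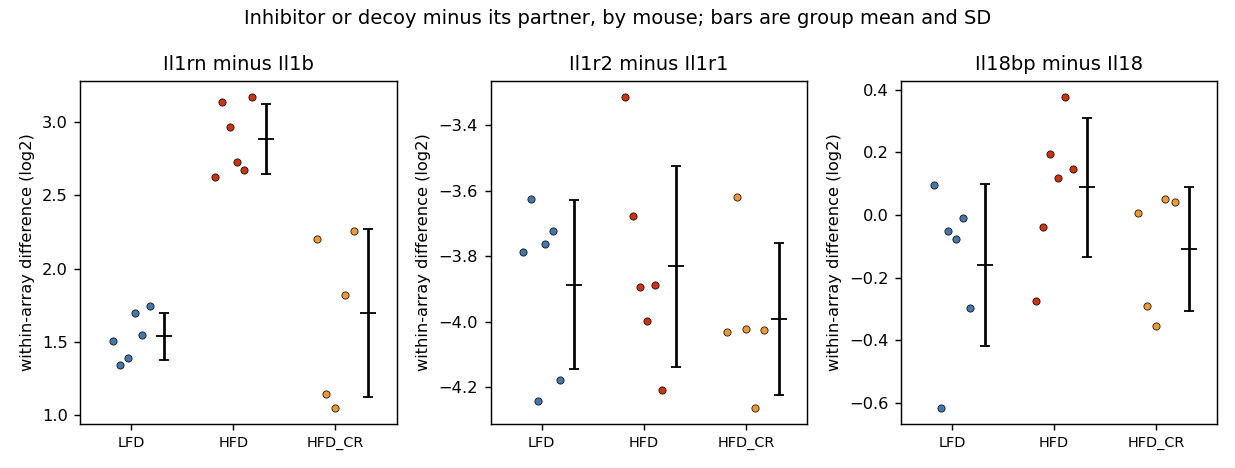
Within-array difference (log2) of an inhibitor or decoy gene minus its partner in each mouse, with bars for the group mean and SD (LFD n = 6, HFD n = 6, HFD_CR n = 5). The 6 HFD mice lie between 2.63 and 3.17 for Il1rn minus Il1b, above all other mice, while the groups overlap for the other pairs.

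Several of the extreme values within a group came from the same mice. HFD mouse 6 had the highest value of its group for 5 of the 10 genes, and HFD_CR mouse 1 for 6 of the 10. HFD mouse 5 had the lowest value of its group for 4, and LFD mouse 6 for 5. HFD mouse 6 and HFD_CR mouse 1 also had the highest mean of their group over the 10 macrophage markers (11.2 and 10.5), and HFD mouse 5 and LFD mouse 6 the lowest (10.7 and 9.74). Other mice followed that order in part. LFD mouse 5 had 3 highest values and ranked 2nd for the markers, and HFD_CR mice 2, 3 and 5 each had 3 lowest values and held the lowest ranks of their group (5th, 4th and 3rd). HFD mouse 1 departed from it, with 3 highest values and the 5th rank. The lowest values of HFD mouse 5 included Il18, which fell in HFD. The part of macrophages in this order was not tested.

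Most macrophage markers rose in HFD and fell in HFD_CR against HFD, as most of the 10 interleukin 1 genes did. Of the 10 markers, 8 rose in HFD (among them Cd68, by 1.92 ± 0.15, and Adgre1, by 1.31 ± 0.14). Mertk and Cd163 did not pass (-0.14 ± 0.06 and -0.16 ± 0.13). In HFD_CR against HFD 8 fell and 1, Mertk, rose (0.39 ± 0.07). Against LFD, 3 were higher in HFD_CR (Itgax by 1.40 ± 0.24, Cd68 by 0.93 ± 0.15, Mertk by 0.25 ± 0.07) and 0 lower. Of the 10 interleukin 1 genes only Casp1 passed in that comparison. The mean over the list ran from 9.74 to 10.2 in LFD, from 10.7 to 11.2 in HFD and from 10.2 to 10.5 in HFD_CR. The part of these cells in the interleukin 1 results was not tested. Of 11 neutrophil markers, 8 were below the array median on all arrays, S100a8 rose (0.65 ± 0.11) and Elane fell (-0.31 ± 0.07) in HFD, and the list mean ran from 6.24 to 6.35 in LFD, from 6.30 to 6.46 in HFD and from 6.26 to 6.31 in HFD_CR. Of 6 fibroblast and progenitor markers 4 rose in HFD, with list means from 11.27 to 11.51 in LFD and from 11.9 to 12.1 in HFD. Of 8 adipocyte markers 6 fell and 1 rose in HFD. In HFD_CR against HFD 2 fibroblast markers fell and 5 adipocyte markers rose. The parts of these cell types were not tested either. In HFD against LFD no T cell, B cell, mast cell, endothelial, gland or muscle marker passed. In the remaining lists the thermogenic genes Cidea (-1.71 ± 0.39) and Cox8b (-0.90 ± 0.30) and the urothelial gene Upk1b (-0.55 ± 0.19) fell, and the dendritic cell gene Flt3 (0.31 ± 0.11) and the germ cell gene Odf1 (0.33 ± 0.05) rose.

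**Figure D4:**
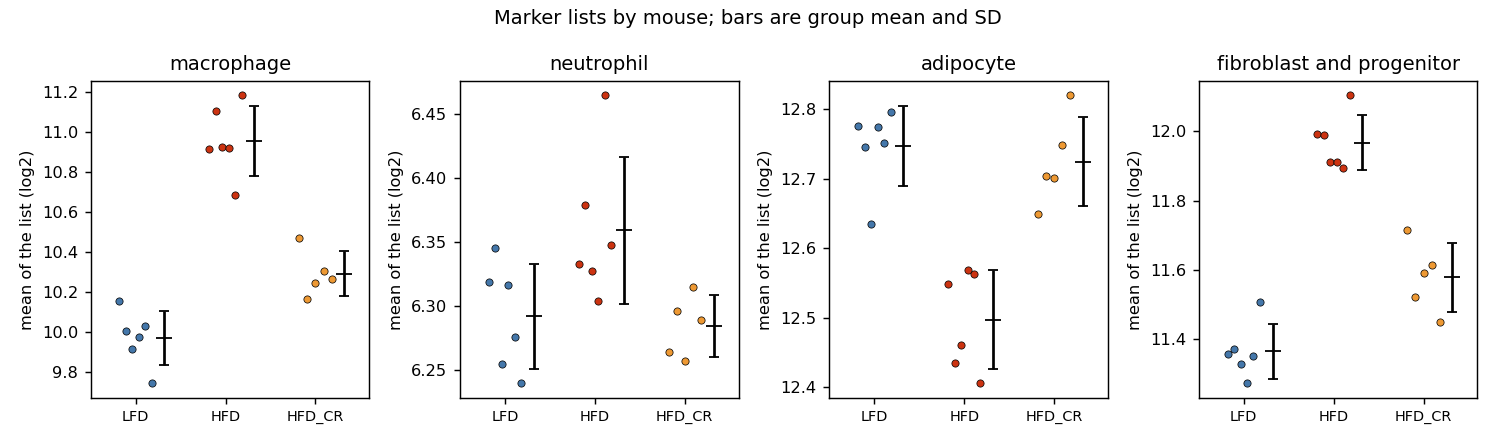
Mean log2 signal over 4 lists of cell type markers in each mouse, with bars for the group mean and SD (LFD n = 6, HFD n = 6, HFD_CR n = 5). Macrophage means run from 10.7 to 11.2 in HFD and from 10.2 to 10.5 in HFD_CR, whereas neutrophil means stay between 6.24 and 6.46 in all groups.

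Further genes of the pathway were read from 6 lists with 77 genes, of which 70 were measured. In HFD against LFD 30 of the 70 rose and 6 fell, with a median difference of 0.14. In HFD_CR against HFD 3 rose and 20 fell, with a median of -0.11, and in HFD_CR against LFD 9 rose and 3 fell, with a median of 0.03. The shares of all genes and the medians over all genes given above are the measure for these counts, and the median over all genes was -0.0024 and -0.00045 in the last 2 comparisons.

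**Figure D5:**
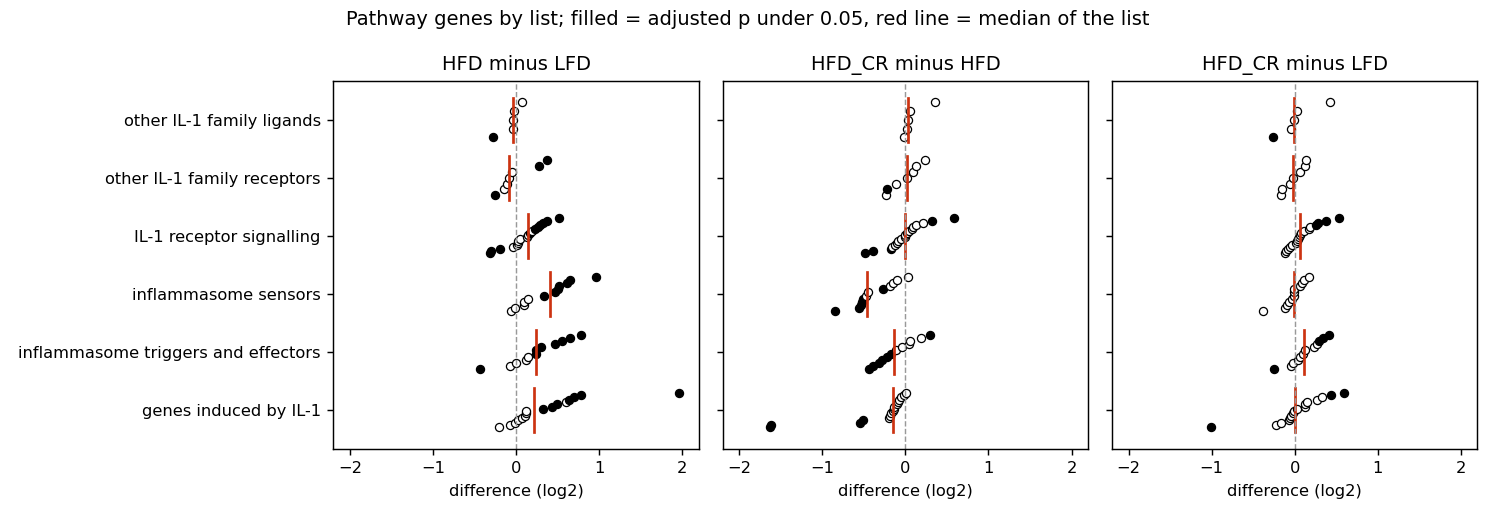
Differences between group means (log2) of the 70 further pathway genes by list in the 3 comparisons; each point is a gene, filled where the adjusted p was under 0.05, and red lines are list medians. Inflammasome sensors have a median of 0.40 in HFD minus LFD and -0.46 in HFD_CR minus HFD, and the point farthest right in HFD minus LFD is Mmp3 at 1.96.

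Inflammasome sensors other than Nlrp3 were mostly higher in HFD. Of 12 measured, 7 rose and 0 fell in HFD, and 6 fell and 0 rose in HFD_CR. None passed in HFD_CR against LFD. Naip2, the gene of a sensor of bacterial secretion systems, ran from 7.47 to 8.05 in LFD and from 8.19 to 8.95 in HFD, a rise of 0.96 ± 0.13 (adjusted p = 1.66e-05), and fell by 0.84 ± 0.14 in HFD_CR. Nlrc4, which the NAIP proteins activate, rose by 0.46 ± 0.11 and fell by 0.53 ± 0.11 (adjusted p = 0.00265 and 0.00224, limma). The sensor of cytosolic DNA, Aim2, rose by 0.50 ± 0.15 (adjusted p = 0.0162) and fell by 0.51 ± 0.16 (adjusted p = 0.0267), and the second call ended without HFD mouse 2, 3 or 6 or HFD_CR mouse 4 or 5 (-0.51 to -0.46, adjusted p up to 0.0747). Its rise ended when LFD mice 3 and 6 were both left out (0.28, adjusted p = 0.0739). Nlrp1b rose by 0.65 ± 0.12, Naip5 by 0.62 ± 0.15 and Nlrp1a by 0.52 ± 0.08. Nlrp1a was dim, with means of 5.75 in LFD, 6.27 in HFD and 5.74 in HFD_CR, so the size of its rise is uncertain. The Naip and Nlrp1 genes have near-identical copies, so the gene behind each of these signals is uncertain.

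Triggers and effectors of the inflammasome changed in both directions. Of 12 measured, 7 rose and 1 fell in HFD, and 6 fell and 1 rose in HFD_CR against HFD. In HFD_CR against LFD 3 were higher and 1 lower. The higher ones were P2rx7, Txnip (0.41 ± 0.08, adjusted p = 0.00272) and Ninj1 (0.29 ± 0.06, adjusted p = 0.00278, limma). Gbp5 was the lower one (-0.25 ± 0.07, adjusted p = 0.0378, limma). P2rx7, the receptor for extracellular ATP that opens the way to NLRP3 activation, ran from 9.07 to 9.26 in LFD, 9.67 to 10.1 in HFD and 9.32 to 9.71 in HFD_CR. It rose by 0.78 ± 0.07 (adjusted p = 3.51e-07), fell by 0.44 ± 0.08, and stayed 0.34 ± 0.08 above LFD in HFD_CR (adjusted p = 0.0091, limma), with all restricted mice above all LFD mice. Casp4, the gene of mouse caspase 11 and the neighbour of Casp1, rose by 0.65 ± 0.09 and fell by 0.39 ± 0.09. The channel gene Panx1 rose by 0.55 ± 0.08, and the membrane rupture gene Ninj1 by 0.47 ± 0.05. Gsdmd, the pore protein that caspase 1 cuts, had the weakest rise of those named (0.24 ± 0.08, adjusted p = 0.0359), and this call ended in 13 of 30 alternatives, among them without LFD mouse 3, 4, 5 or 6 or HFD mouse 1, 2, 3 or 6 (0.20 to 0.24, adjusted p up to 0.088). Gbp5 fell by 0.44 ± 0.07 in HFD, where all mice lay below all LFD mice. Txnip, a binding partner of NLRP3 and thioredoxin, differed by 0.12 ± 0.07 in HFD (adjusted p = 0.275) and rose by 0.29 ± 0.08 in HFD_CR against HFD (adjusted p = 0.0132), with all HFD_CR mice (13.2 to 13.4) above all HFD mice (12.8 to 13.1).

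Receptor signalling genes were mixed. Of 18 measured, 7 rose and 3 fell in HFD, and 2 rose and 3 fell in HFD_CR against HFD. Myd88, the adaptor of the interleukin 1 and Toll-like receptors, rose by 0.27 ± 0.05 and fell by 0.39 ± 0.05 (adjusted p = 0.000567 and 5.83e-05, limma). Nfkb2, an NF-kB subunit gene, rose by 0.51 ± 0.06 and fell by 0.49 ± 0.07. Irak3, which restrains the receptor complex, rose by 0.37 ± 0.05 in HFD and stood 0.37 ± 0.05 above LFD in HFD_CR, with a difference between the high-fat groups of -0.000026 ± 0.05, and all mice of both groups lay above all LFD mice. Irak2 stood 0.32 ± 0.08 above LFD in HFD and 0.53 ± 0.08 above LFD in HFD_CR. Tab3 and the ubiquitin ligase gene Peli2 fell in HFD (-0.31 ± 0.05 and -0.31 ± 0.07) and rose in HFD_CR against HFD (0.32 ± 0.06 and 0.59 ± 0.07). Peli1, a related ligase gene, was higher in HFD_CR than in LFD (0.26 ± 0.08, adjusted p = 0.0438), and this call ended in 18 of 30 alternatives, among them without LFD mouse 3, 4 or 6, HFD mouse 2 or 6, or HFD_CR mouse 2, 3, 4 or 5 (0.21 to 0.26, adjusted p up to 0.126).

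In HFD against LFD, 0 of 5 further ligands of the family rose and 1 fell. Of the further receptors 2 rose and 1 fell, where 16.5% of all genes rose and 11.3% fell. In HFD_CR against HFD, 0 of these ligands passed, and 0 of the receptors rose and 1 fell. Of 5 further ligands, Il36a, listed under its older symbol Il1f6, fell in HFD (-0.28 ± 0.06) and was lower in HFD_CR than in LFD (-0.26 ± 0.06, adjusted p = 0.0126), a call that ended without the 4 arrays high in muscle or gland genes (-0.23, adjusted p = 0.0611). The alarmin gene Il33 differed by 0.08 ± 0.13 in HFD and by 0.35 ± 0.14 in HFD_CR against HFD (adjusted p = 0.732 and 0.0843). Of 7 further receptors, Il1rl2 rose by 0.38 ± 0.11, the co-receptor gene Il1rap rose by 0.28 ± 0.06 and Sigirr, an inhibitory receptor, fell by 0.25 ± 0.09 in HFD. The probe sets of Il1rap disagreed, since their average differed by only 0.06 (adjusted p = 0.346). The call for Sigirr ended in 14 of 30 alternatives, among them without LFD mouse 1, 3 or 5 or HFD mouse 1, 2, 4 or 6 (-0.26 to -0.19, adjusted p up to 0.0961). The interleukin 18 receptor gene Il18r1 differed by -0.11 ± 0.09 in HFD (adjusted p = 0.405) and by 0.24 ± 0.10 in HFD_CR against HFD (adjusted p = 0.0954).

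Of 16 genes known to be induced by interleukin 1, 7 rose and 0 fell in HFD, and 4 fell and 0 rose in HFD_CR against HFD. Other cytokines and microbial products induce them too. The matrix metalloproteinase gene Mmp3 ran from 6.13 to 6.59 in LFD, 7.97 to 8.63 in HFD and 6.14 to 7.22 in HFD_CR, rising by 1.96 ± 0.15 (adjusted p = 3.21e-08) and falling by 1.64 ± 0.15 (adjusted p = 6.02e-06, limma). The chemokine gene Cxcl2 rose by 0.69 ± 0.09 and fell by 0.55 ± 0.09, and the adhesion gene Icam1 rose by 0.64 ± 0.09 and fell by 0.51 ± 0.09. Vcam1 rose by 0.78 ± 0.09 and stayed 0.60 ± 0.09 above LFD in HFD_CR. Tnfaip3, a brake on NF-kB, stayed 0.44 ± 0.08 above LFD. The acute phase gene Saa3 differed by 0.60 ± 0.27 in HFD (adjusted p = 0.109) and fell by 1.62 ± 0.28 from HFD to HFD_CR. It was also below LFD in HFD_CR (-1.01 ± 0.28, adjusted p = 0.0295), a call that ended in 10 of 30 alternatives, among them without LFD mouse 1, 4 or 6 or HFD_CR mouse 1, 3, 4 or 5 (-1.04 to -0.88, adjusted p up to 0.0875). Il6, near the lower end of the signal range at 5.18 to 5.46 in HFD, differed by 0.02 ± 0.05 (adjusted p = 0.778).

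By likeness of profile over all 17 arrays, measured as the root mean square difference of values centred on each gene's mean, the genes nearest to Il1rn were Mmp3 (0.20), Zranb3 (0.23) and Apobec1 (0.23), where Il1rn itself varied with a root mean square of 0.84. Nearest to Casp1 were Fkbp1b, Cerk and Rab8b (0.12 each, against 0.50 for Casp1). Nearest to Pycard were Man2b1 (0.08), Card9 (0.09) and Trim47 (0.09), against 0.26 for Pycard. Mmp3 rose by 1.96 in HFD and Il1rn by 1.69, and their differences between HFD_CR and HFD were -1.64 and -1.56.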

How the data were processed

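The authors deposited log2 expression values per probe set for 17 arrays, and the submitters' processing notes name RMA, R 3.5.0 and limma without a role or order. RMA compresses differences of dim probe sets. For the array, a genome build is not given in the sources used here. Of 33793 probe sets, 23521 had 1 gene symbol in the platform annotation, 1814 had several and 8458 had none. The probe set with the highest mean represented a gene, which left 22180 genes, without a filter on dim signals. With limma 3.58.1 (R 4.3.3), lmFit and eBayes gave a mean per group over the 17 arrays, with 14 residual and 3.63 prior degrees of freedom. Figures were made with matplotlib 3.10.9 (Python 3.11.15).

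The members and the lists of pathway genes and markers were chosen with earlier results of these data known. Named pathway genes are up to 4 passing genes per list and comparison, taken by size of difference (2 by p where none passed), and fixed ones such as Myd88 and Il6. Genes of like profile were taken for members that changed by at least 0.5. Of 77 pathway genes 7 had no probe set with a single matching symbol and were not analysed here, and 3 matched by an older symbol. On simulated arrays of 22180 genes, the test of HFD against LFD recovered 88.1% of the genes changed by 0.5 and 98.5% of those changed by 1. For changes of 0.5 it was 80.6% in HFD_CR against HFD and 83.6% in HFD_CR against LFD. The simulated noise was independent for each gene and array, and far fewer genes were changed than were called in the data. Differences under 0.5, such as those of Il1b and Nlrp3, were not simulated. Alternatives were each array left out, the mouse number as a block, a filter on low signals, other uses of probe sets, other scalings, other variance settings, stricter thresholds, and the arrays high in other tissues left out.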

Additional observations from a re-analysis of the deposited data

Results flagged for a closer look

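In LFD, Pycard measured 8.38 in mouse 6 and at least 8.75 in the other 5 mice, a gap of 73.0% of the range of the group. This was the 1 case among 30 checks (10 genes in 3 groups) past Dixon's 95% critical value, which by its definition chance passes in about 1 of 20 groups. Without LFD mouse 6, Pycard was 0.43 higher in HFD than in LFD (adjusted p = 2.69e-05, limma), against 0.51 with it. The same mouse had the lowest mean of all 17 mice for the macrophage (9.74), neutrophil (6.24), mast cell (8.30), T cell (7.15) and B cell (8.59) lists, and was high for thermogenic adipocyte genes (10.34). The part of these in the low value was not tested.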

How the results depend on the processing

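Of 888 differences of the 10 genes recomputed under alternatives, 847 kept their direction, where called, and their side of the threshold, 37 lost and 4 gained a call, and none reversed. A difference of at least 1.5-fold left 2 rises and 0 falls among the 10 genes in HFD against LFD, 2 falls in HFD_CR against HFD and 0 rises in HFD_CR against LFD, with 1132, 694 and 304 genes called in all. An adjusted p under 0.01 ended the fall of Il18 in HFD (0 members lower), the fall of Il1r2 in HFD_CR against HFD (5 members lower) and the rise of Casp1 in HFD_CR against LFD (0 higher), with 2575 and 967 genes called in HFD_CR against HFD and against LFD. Among genes above the median level, which leaves out Il1b, Il1a, Il1r2 and Nlrp3, 4 members rose and 1 fell in HFD against LFD, and 3 fell in HFD_CR against HFD. Without the 4 arrays high in muscle or gland genes, 0 members were lower in HFD and 2 were higher in HFD_CR than in LFD. Without LFD mice 3 and 6, these counts were 0 and 1. For the filter on level, for these sets of arrays left out and for HFD against LFD at the stricter adjusted p, the number of all genes called is not given. Such settings can change that number, so the shares over all genes given above are no measure for these member counts. The mice left out for other tissues were known from earlier results of these data. Leaving out each array in turn, the number of members higher in HFD_CR than in LFD ran from 0 to 1. Over the same fits, from 1507 to 2355 of all genes were called in either direction in HFD_CR against LFD.

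The mouse numbers were not used as pairs in the fit reported above. Of 16 same-numbered pairs, 5 had correlated deviations over 0.1 (-0.11 to 0.41), and the same number correlated best in 9 of 32 checks. The highest value, 0.41, was between LFD mouse 3 and HFD mouse 3, both high for gland epithelium genes. The next, 0.30, was between LFD mouse 2 and HFD_CR mouse 2, both high for skeletal muscle genes. The part of these tissues in the correlations was not tested. A chance rate was not worked out, so these values do not settle whether the numbers pair the mice. With the mouse number as a replicate block, 6056, 4010 and 1773 genes were called, and 0 members were higher in HFD_CR than in LFD (Casp1 0.46, adjusted p = 0.051). Dim signals limit the sizes for Il1b, Il1a, Il1r2 and Nlrp3. The same limit holds for pathway genes with signals near or below the array medians, such as Nlrp1a, Nlrc4, Il36a and, outside HFD, Mmp3.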
